A study of Mus musculus with 8 samples.

Results

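Hedgehog and PDGF (platelet-derived growth factor) signals pass between the seminiferous tubule and the interstitium of the testis, and their RNA was compared between wild-type and Iqch mutant mice. The genes were chosen by name as the ligands Dhh, Pdgfa and Pdgfb, the receptors Ptch1, Smo, Pdgfra and Pdgfrb, and the hedgehog target genes Ptch1, Gli1 and Hhip, 9 genes in all. Of these, 6 have a value among the 17127 genes of the deposited table, and Gli1, Hhip and Pdgfrb are not analysed here. Libraries were made from whole testes of males aged 4 months, 1 library per mouse. The wild-type group holds mice 1 to 4, with no edited allele of Iqch. The mutant group holds mice 1, 2 and 4, which carry CRISPR-Cas9 deletions in a late coding exon of Iqch, a testis gene with a calmodulin-binding IQ motif, and which were derived from injected B6CBAF1 (C57BL/6 x CBA) zygotes. All mutants were homozygous. The study kept 2 mutant lines and names the line Iqch mu7 where it shows the RNA-seq reads over Iqch, while the labels of the libraries give no line. Mutant 3 is not analysed here, and the authors had set 1 mutant library aside as an outlier.

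In hedgehog signalling a secreted ligand binds PTCH1 and lifts its block on the membrane protein SMO, and GLI transcription factors then switch on target genes that include Ptch1, Gli1 and Hhip. In the testis Sertoli cells, the supporting cells inside the tubule, secrete DHH, and the cells that respond to it are Leydig cells, which make testosterone, and peritubular myoid cells. PDGF-A from the tubule acts on interstitial cells that carry PDGFRA and is needed for Leydig cells to form, whereas PDGF-B from endothelial cells acts on pericytes that carry PDGFRB.

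Ptch1 is both a receptor and a readout of the pathway. The motif of the GLI factors, spelled GACCACCCA, was searched on both strands over the 1000 bases before the start of each canonical transcript. Other annotated starts were not searched. The motif occurred in 180 of 21770 protein-coding genes (0.827%) and in 110 of the 13785 protein-coding genes with a value here (0.798%). Among the 9 listed genes Ptch1 had 1 match and the others had 0. The stretch around it is shown because it is the only such match in the searched windows of the listed genes. It covers 120 bases of GRCm39, chr13:63714194-63714313, written along the minus strand of the gene, with the motif in capitals as its reverse complement.
Ptch1 promoter: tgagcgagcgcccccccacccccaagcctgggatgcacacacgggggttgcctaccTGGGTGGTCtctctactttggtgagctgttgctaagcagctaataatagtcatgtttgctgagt
The match lies from 165 to 157 bases before the start of the canonical transcript at 63714092, and 0 annotated exons overlap the stretch. It lies inside the gene model of Ptch1, which extends to 63721412. It is a match of letters and no measurement of binding. The motif CAAGGTCA of NR5A factors, which regulate steroid synthesis genes, had 0 matches before the 9 genes and occurred before 1481 of all 21770 genes (6.8%).

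Values are CPM, in which the reads on each gene are divided by all reads of that library on the genes of the table and multiplied by 1000000. The libraries held 32064384 to 37551057 such reads, so that 1 read is worth 0.0266 to 0.0312 CPM. Iqch RNA fell from 208 ± 11.3 CPM (SD, n = 4) to 67.3 ± 2.25 (SD, n = 3) in the mutants. Between the groups, limma called 6212 of 17126 tested genes higher (36.3%) and 2428 lower (14.2%) in the mutants, at a false discovery rate (FDR) under 0.01. Over all tested genes the log2 fold change had a median of 0.121. Median-of-ratios size factors brought that median to -0.013, with 4627 genes called higher (27.0%) and 4294 lower (25.1%). Changes after that scaling are therefore given beside those of the deposited CPM. All FDR values below are limma's, with Benjamini-Hochberg adjustment over all tested genes. In bulk tissue, a change in the number of cells of a type and a change in RNA per cell cannot be told apart. CPM are shares of each library, and the paper reports smaller mutant testes with a lower proportion of haploid cells. The part of these in the changes below was not tested.

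As a share of library reads, RNA of Ptch1 and of Pdgfra more than doubled in Iqch mutant testes. That of the ligands changed less or did not pass the test. Of the 6 genes with a value, 5 were called higher and 0 lower, beside 36.3% and 14.2% of all tested genes. By role, they were 2 of 3 ligands, 3 of 3 receptors with a value, and Ptch1 as the 1 target gene with a value. These counts include Pdgfb, which entered the test through the mutants only, and without it 4 of 5 genes and 1 of 2 ligands were called higher. Scaling by size factors left 3 called, Dhh, Ptch1 and Pdgfra, beside 27.0% of all genes. In 5 of the 6 genes every mutant library lay above every wild-type library, which held for 42.8% of all tested genes. Higher calls with a fold change above 2 made up 8.79% of tested genes, and Ptch1 and Pdgfra were among them.

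Dhh (ENSMUSG00000023000, chromosome 15, 98789033 to 98796439, minus strand) encodes the hedgehog ligand of the Sertoli cell. Its values were 11.9, 13.5, 12.8 and 11.2 CPM in wild-type mice 1 to 4 and 16.6, 21.9 and 18.0 CPM in mutants 1, 2 and 4. The groups did not overlap, and mutant 2 was the highest. The means were 12.3 ± 0.981 CPM (SD, n = 4) and 18.8 ± 2.73 CPM (SD, n = 3). Dhh rose with a log2 fold change of 0.60 (SE 0.10, FDR = 0.0002), and of 0.47 after scaling by size factors (FDR = 0.00096). A larger log2 fold change was found for 19.7% of tested genes. The call held with each of the 7 libraries left out in turn, with changes from 0.49 to 0.68. Part of the exon sequence of Dhh is shared with neighbours, 546 bases (12.4%) with Rhebl1 on the same strand and 1248 bases (28.3%) with the long noncoding RNA Gm49442 on the opposite strand. Rhebl1 was at 2.98 ± 0.645 CPM in wild type and 3.05 ± 0.27 in mutants, whereas Gm49442 was at 1.42 ± 0.376 and 2.6 ± 0.189 CPM. Gm49442 reached the minimum for testing, 2.2 CPM in 2 libraries of a group, only in the mutants, so its difference is given with no test. Since the strand setting of the counting is not given in the sources used here, reads of Gm49442 and Dhh in that stretch cannot be told apart. The part of such reads in the change of Dhh was not tested.

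Pdgfa (ENSMUSG00000025856, chromosome 5, 138961758 to 138983435, minus strand) encodes the PDGF-A chain. It was at 10.8, 13.3, 12.5 and 10.6 CPM in wild-type mice 1 to 4 and at 10.9, 12.5 and 12.0 CPM in mutants 1, 2 and 4. The mutant values lay inside the wild-type range. Both means were 11.8 CPM (SD 1.33, n = 4, and 0.832, n = 3), the log2 difference was 0.01 with a 95% interval from -0.21 to 0.22, and the FDR was 0.95. After scaling by size factors the difference was -0.13 (FDR = 0.26), so its sign depends on the scaling. The antisense RNA 6330403L08Rik shares 2552 bases (37.7%) of Pdgfa exon sequence and, at 3.35 ± 0.574 and 3.83 ± 0.385 CPM, was not called either (FDR = 0.28).

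Pdgfb (ENSMUSG00000000489, chromosome 15, 79880009 to 79899181, minus strand) encodes the PDGF-B chain and was the lowest of the 6 genes, with 60 to 116 reads per library. Its values were 2.09, 2.18, 1.83 and 2.34 CPM in wild-type mice 1 to 4 and 3.33, 3.18 and 3.07 CPM in mutants 1, 2 and 4. No mutant value reached down to the wild-type range. Pdgfb was called higher with a log2 fold change of 0.58 (SE 0.15, FDR = 0.0039), but it passed the minimum of 2.2 CPM in 2 libraries of a group only through the mutants. Its values are therefore given as a description, and the call is not taken as support for a rise. The call was lost after scaling by size factors (0.45, FDR = 0.017) and without mutant 1 (0.55, FDR = 0.018), mutant 2 (0.58, FDR = 0.014) or mutant 4 (0.61, FDR = 0.011).

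Ptch1 (ENSMUSG00000021466, chromosome 13, 63656142 to 63721412, minus strand) encodes the hedgehog receptor, which is at the same time transcribed in response to the signal. Its values were 11.2, 8.39, 10.2 and 9.59 CPM in wild-type mice 1 to 4 and 22.2, 32.2 and 24.8 CPM in mutants 1, 2 and 4. The lowest mutant library was well above the highest wild-type library, and mutant 2 was the highest, as for Dhh. The means were 9.86 ± 1.2 CPM (SD, n = 4) and 26.4 ± 5.16 CPM (SD, n = 3), 2.68-fold apart. Ptch1 rose with a log2 fold change of 1.40 (SE 0.13, FDR = 9.7e-07), and of 1.27 after scaling by size factors (FDR = 2e-06). Only 3.92% of tested genes had a larger log2 fold change. The change was called whichever library was omitted and ran from 1.25 to 1.52.

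Smo (ENSMUSG00000001761, chromosome 6, 29735407 to 29762532, plus strand) encodes the membrane protein that PTCH1 holds back, and its activity is set mainly at the protein. It was at 9.81, 6.52, 7.18 and 7.19 CPM in wild-type mice 1 to 4 and at 10.9, 9.86 and 10.9 CPM in mutants 1, 2 and 4. Wild-type mouse 1 stood close to the lowest mutant, and the other wild-type mice were lower. Smo was called higher with a log2 fold change of 0.47 (SE 0.13, FDR = 0.0064), and the call was lost in most alternatives. Scaling by size factors gave 0.33 (FDR = 0.037). Without wild-type mouse 2, 3 or 4 the changes were 0.40, 0.44 and 0.44, with FDR values of 0.021, 0.017 and 0.015. Without mutant 1, 2 or 4 they were 0.44, 0.51 and 0.44, with FDR values of 0.024, 0.011 and 0.023.

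Pdgfra (ENSMUSG00000029231, chromosome 5, 75311994 to 75358876, plus strand) encodes the PDGF receptor alpha of interstitial cells. Its values were 15.8, 12.0, 13.6 and 16.0 CPM in wild-type mice 1 to 4 and 31.5, 35.7 and 31.0 CPM in mutants 1, 2 and 4. All 3 mutants were close to each other and far above the wild-type mice. The means were 14.3 ± 1.91 CPM (SD, n = 4) and 32.7 ± 2.58 CPM (SD, n = 3), 2.28-fold apart. Pdgfra rose with a log2 fold change of 1.19 (SE 0.10, FDR = 5.5e-07), and of 1.06 after scaling by size factors (FDR = 1.7e-06). The change ran from 1.11 to 1.25 with each library left out in turn and was called each time.

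**Figure D1:**
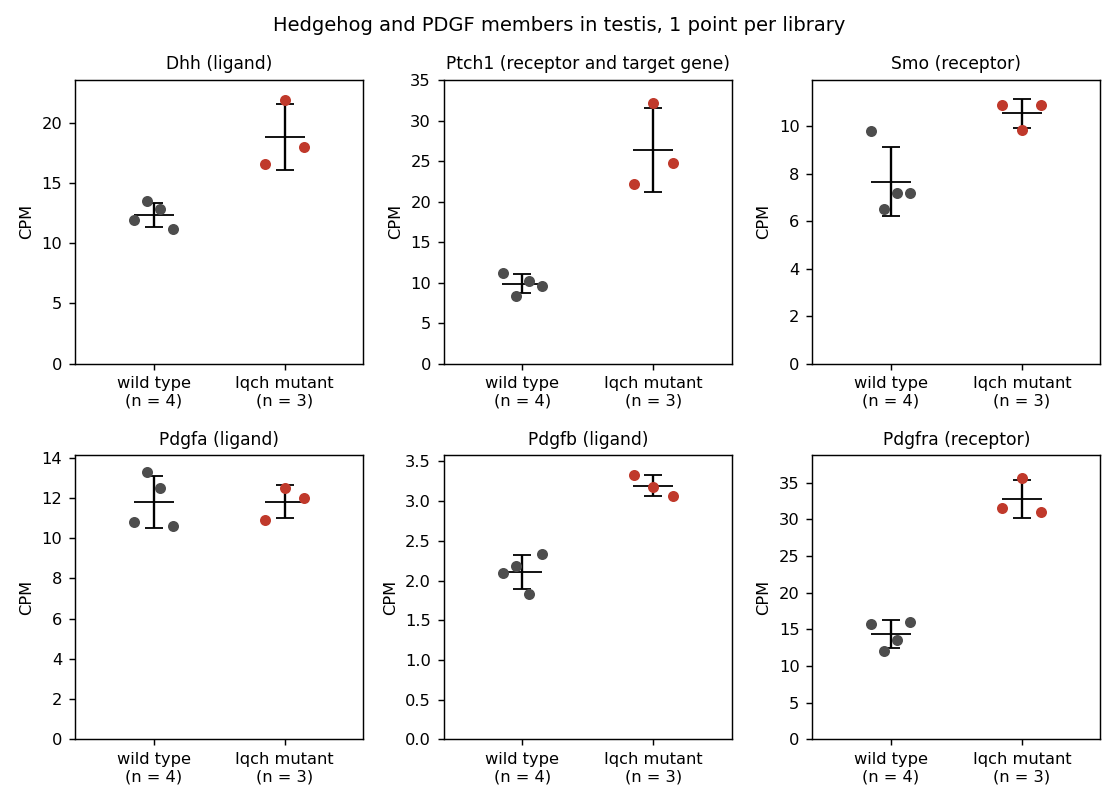
CPM (y axis, from 0) of the 6 hedgehog and PDGF genes with a value, in wild-type (grey, n = 4) and Iqch mutant (red, n = 3) testes; points are libraries, and black bars are the mean ± SD. Ptch1 and Pdgfra stand furthest apart, at means of 9.86 against 26.4 and 14.3 against 32.7 CPM, whereas the Pdgfa values overlap.

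Levels of different genes were compared as CPM per kilobase of annotated exon. In wild-type testes Dhh was the highest, at 2.8 ± 0.222 CPM per kb (SD, n = 4), followed by Pdgfa at 1.74 ± 0.197 and Pdgfra at 1.17 ± 0.155. Smo at 0.869 ± 0.165, Ptch1 at 0.67 ± 0.0813 and Pdgfb at 0.497 ± 0.051 were lower. The ranges over libraries of Smo (0.739 to 1.11) and its neighbours Pdgfra (0.973 to 1.3) and Ptch1 (0.57 to 0.764) overlapped, so those neighbours were not separated by more than their spread. In the mutants the level of Dhh was 4.27 ± 0.618 CPM per kb (SD, n = 3) and Pdgfra came next at 2.66 ± 0.209. Ptch1 at 1.79 ± 0.351 and Pdgfa at 1.75 ± 0.123 overlapped, and they were followed by Smo at 1.19 ± 0.0661 and Pdgfb at 0.752 ± 0.0309. Per length, the receptor Pdgfra thus lay below the ligand Pdgfa in wild type and above it in the mutants. Length was that of all annotated exons of a gene together, with bases shared with other genes included. In CPM alone, the wild-type mean of Pdgfra was above that of Pdgfa, at 14.3 against 11.8, with overlapping libraries. Their order in wild type therefore depends on the division by length.

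Receptor and target gene were set against the ligand within each library, a ratio that does not depend on how libraries are scaled. Of 9 ratios listed, 4 could not be formed because Gli1, Hhip or Pdgfrb has no value here, and Ptch1 was added in place of Gli1 after the data were seen, which gives 6 ratios. Each was tested with a two-sided exact permutation test over the 7 libraries, whose smallest possible p is 0.029, and no p was adjusted over the 6 tests.

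The level of Ptch1 relative to Dhh was 0.945, 0.625, 0.803 and 0.854 in wild-type mice 1 to 4 and 1.33, 1.47 and 1.38 in mutants 1, 2 and 4. Every mutant was higher, by 0.80 on the log2 scale or 1.74-fold (exact permutation p = 0.029). Thus the receptor and target gene rose more than the ligand. The level of Smo relative to Dhh was 0.826, 0.488, 0.567 and 0.643 in wild type and 0.655, 0.453 and 0.606 in mutants. These overlapped, with a log2 difference of -0.13 (exact permutation p = 0.57). Its sign changed without wild-type mouse 1 (0.01) or mutant 2 (0.03).

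For the PDGF pair, the level of Pdgfra relative to Pdgfa was 1.47, 0.9, 1.09 and 1.5 in wild-type mice 1 to 4 and 2.88, 2.84 and 2.56 in mutants 1, 2 and 4. It was 2.27-fold higher in the mutants (log2 difference 1.18, exact permutation p = 0.029). Since Pdgfa did not pass the test, the difference in this ratio was close to that of Pdgfra alone.

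The same genes were then set beside markers of the cells that are known to express them. The Sertoli markers rose in 9 of 9 genes tested, beside 36.3% of all tested genes. Their summed level went from 1210 to 1310 CPM in wild-type libraries to 2530 to 2630 in mutants, 2.03-fold. Most of it came from Clu (851 ± 39.3 to 1820 ± 56.9 CPM), a secreted chaperone. Dhh relative to that sum was 0.00922, 0.0112, 0.0105 and 0.00863 in wild type and 0.00662, 0.00837 and 0.00714 in mutants. Every mutant was below every wild-type mouse, with a log2 difference of -0.42 (exact permutation p = 0.057). Against the mean log2 level of the markers, an alternative chosen after seeing the data, the difference was -0.29 (exact permutation p = 0.14). Dhh thus did not rise as far as the sum of the markers of its source cell, by a difference that did not pass a p of 0.05.

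Leydig markers rose in 7 of 8 genes, beside 36.3% of all tested genes. Their summed level went from 1140 to 1370 CPM in wild-type libraries to 4760 to 4880 in mutants, 3.91-fold. Most of the mutant sum was Insl3 (438 ± 15.7 to 2940 ± 37.6 CPM), a Leydig cell peptide hormone, whereas Star, which carries cholesterol into mitochondria, was at 117 ± 28.7 and 138 ± 33.6 CPM (FDR = 0.25). Pdgfra relative to the Leydig sum was 0.0135, 0.00963, 0.012 and 0.0117 in wild type and 0.00648, 0.00753 and 0.00639 in mutants. It was lower in all mutants, by a log2 difference of -0.78 (exact permutation p = 0.029), and by -0.43 (exact permutation p = 0.086) against the mean log2 level of the markers. Ptch1 relative to the Leydig sum was 0.00961, 0.00677, 0.00902 and 0.00709 in wild type and 0.00456, 0.00678 and 0.00513 in mutants. The groups touched at mutant 2 and wild-type mouse 2, and the log2 difference was -0.57 (exact permutation p = 0.086). Against the mean log2 level of the markers it was -0.22 (exact permutation p = 0.31). Pdgfra was thus lower relative to the summed Leydig markers but did not pass a p of 0.05 against their mean log2 level, and Ptch1 did not pass against either.

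**Figure D2:**
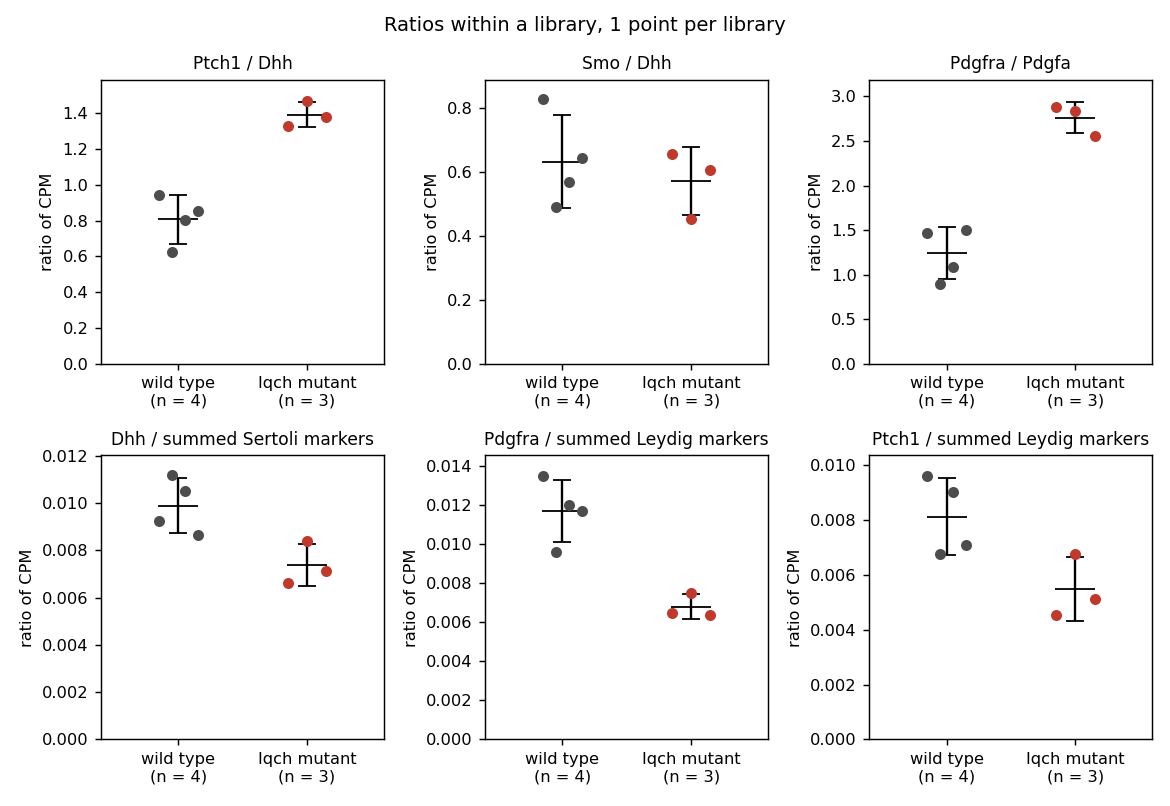
Ratio of the CPM of 2 genes, or of a gene and a summed marker list, within each library (y axis, from 0) in wild-type (grey, n = 4) and Iqch mutant (red, n = 3) testes; points are libraries, and black bars are the mean ± SD. Ptch1 to Dhh and Pdgfra to Pdgfa are higher in every mutant, Smo to Dhh overlaps, and the lower panels show the ratios to summed Sertoli or Leydig markers.

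Other cells that may carry these RNAs moved in different ways. Their counts stand beside 36.3% of all tested genes called higher and 14.2% called lower. Of the peritubular myoid markers, which label another hedgehog-responding cell, 1 of 5 rose, 1 fell and 3 were not called. Their summed level went from 346 to 419 CPM in wild type to 286 to 326 in mutants. Most of that sum was Actg2, the marker called lower, at 299 ± 20.9 CPM in wild type and 221 ± 15.5 in mutants. Des, called higher, was at 4.57 ± 0.378 and 7.01 ± 0.33 CPM. Acta2, not called, was at 41.7 ± 4.91 and 51.1 ± 8.53 CPM, so the sum mainly follows Actg2. Interstitial fibroblast markers rose in 3 of 7 genes (129 to 163 CPM against 164 to 192), and Lum, called lower, reached the minimum in the wild type only. Dcn, a proteoglycan of such cells, rose from 38.3 ± 1.28 to 87.3 ± 4.05 CPM, whereas the collagen genes Col1a1, Col1a2 and Col3a1 were not called. Col3a1 was called lower after scaling by size factors (-0.44, FDR = 0.0036) and without wild-type mouse 2 (-0.39, FDR = 0.0054). Col1a1 was called lower with the replicate number as a block (-0.43, FDR = 0.004). Pericyte markers rose in 3 of 4 genes (18.6 to 20.9 CPM against 24.4 to 35.7) and endothelial markers in 2 of 5 (30.6 to 34.5 against 44.0 to 46.4), beside 36.3% of all tested genes. Macrophage markers rose in 6 of 6 genes, from a sum of 65.9 to 72.3 CPM to 163 to 190. Spermatid markers fell in 5 of 6 genes, from a sum of 15800 to 16800 CPM to 10000 to 11600. Among the spermatocyte markers, 1 of 6 rose and 1 fell (4200 to 4310 against 3620 to 3700). Most of that sum was Ldhc, the marker called lower, at 3570 ± 69.6 CPM in wild type and 2960 ± 34.0 in mutants. Spo11, called higher, was at 65.8 ± 5.13 and 79.2 ± 5.3 CPM, and the other spermatocyte markers were not called. Spermatogonial markers rose in 3 of 6 genes (69.0 to 75.6 CPM against 109 to 138). Most of the rise in that sum was Kit, at 21.7 ± 2.49 CPM in wild type and 62.2 ± 11.1 in mutants. The calls of Zbtb16 and Dmrt1 were lost after scaling by size factors (0.67, FDR = 0.012, and 0.08, FDR = 0.25). After scaling by size factors, 8 of the 9 Sertoli markers and 2 of the 4 pericyte markers were called higher, 2 fibroblast markers were called higher and 2 lower, 1 endothelial marker was called lower beside the 2 called higher, and 1 spermatogonial and 0 spermatocyte markers were called higher. Over all tested genes the shares after that scaling were 27.0% higher and 25.1% lower. In the lists, 0 genes with a value were at 0 in any library, and Fshr, Tagln, Cspg4, Kcnj8 and Tie1 were not analysed here. The part of these cell types in the changes of Dhh, Ptch1, Pdgfb and Pdgfra was not tested.

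**Figure D3:**
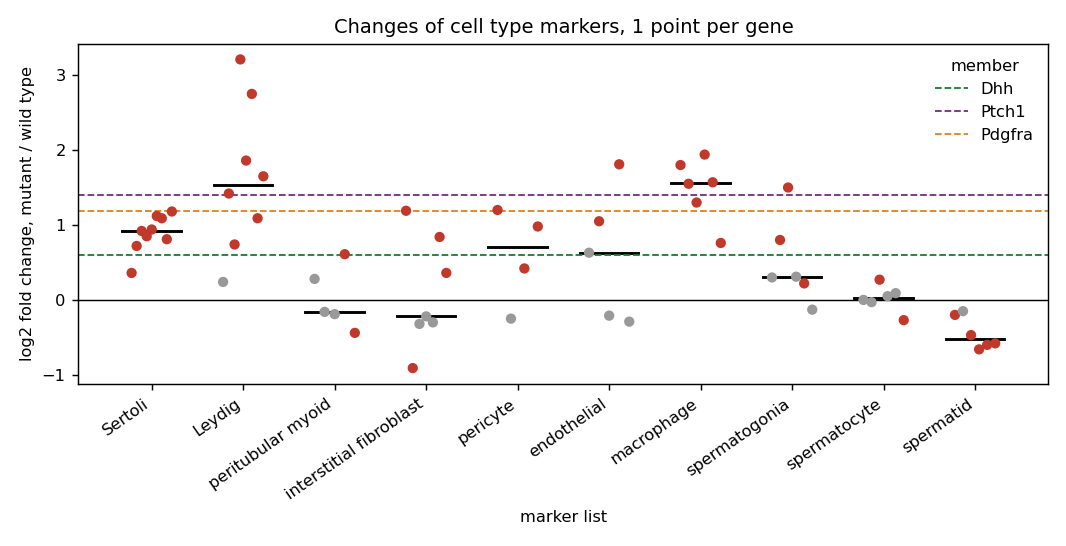
Log2 fold change between Iqch mutant and wild type (y axis) of the markers of 10 testis cell types (x axis), 1 point per gene, red where called at an FDR under 0.01 and grey where not; black bars are medians, and dashed lines give Dhh (0.60), Ptch1 (1.40) and Pdgfra (1.19). Most Sertoli markers lie above the Dhh line, and the Leydig median of 1.53 lies above the Ptch1 and Pdgfra lines.

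The other genes of the pathways were read from the same fit. Of 57 listed genes, 50 have a value, of which 33 (66.0%) were called higher and 3 (6.0%) lower, beside 36.3% and 14.2% of all tested genes. After scaling by size factors, 28 were called higher and 3 lower, beside 27.0% and 25.1% of all tested genes. The 24 hedgehog genes had a median log2 fold change of 0.32 and the 26 PDGF genes one of 0.52, beside 0.121 for all tested genes. Plau and Pdgfrl, like Pdgfb, passed the minimum only through the mutants, and without them 31 of 48 genes were called higher. Of the genes named here and below, Disp1, Hhat, Scube3, Cdon, Boc, Sufu, Iqce, Gli2, Gli3, Plat, Pdgfc, Pdgfd and the uncalled signalling genes were singled out once their values were known. The same holds, among the markers, for Clu, Insl3, Star, Dcn, the collagen genes, Actg2, Des, Acta2, Ldhc, Spo11, Kit, Zbtb16 and Dmrt1.

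Of the hedgehog ligands and the factors that release them, 2 of 4 with a value rose, beside 36.3% of all tested genes. Scube2, a secreted protein that helps hedgehog leave the cell, rose from 25.8 ± 3.41 to 38.1 ± 1.57 CPM (log2 fold change 0.57, FDR = 9.4e-05), and Disp1, the exporter of the lipid-bound ligand, had a log2 fold change of 0.52. Disp1 was not called after scaling by size factors (0.39, FDR = 0.011), which left 1 of 4 beside 27.0% of all tested genes. It was also not called without mutant 1 (0.42, FDR = 0.011). Hhat, which attaches palmitate to the ligand, and Scube3 were not called, at 0.13 and -0.08. Shh and Ihh are not analysed here.

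Of the receptors and co-receptors, 4 of 7 rose and 0 fell, beside 36.3% and 14.2% of all tested genes. Gas1, a co-receptor at the cell surface, rose from 3.9 ± 0.611 to 6.45 ± 0.573 CPM (log2 fold change 0.72, FDR = 0.00051). The co-receptors Cdon and Boc had log2 fold changes of 0.69 and 0.68. After scaling by size factors 3 of the 7 stayed called, beside 27.0% of all tested genes. Cdon was not among them (0.56, FDR = 0.011), nor was it called without mutant 1 (0.51, FDR = 0.015).

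The transducers, which act between SMO and the genes, included 6 of 13 genes called higher and 3 called lower, beside 36.3% and 14.2% of all tested genes. Ulk3, a kinase that acts on GLI proteins, rose from 4.97 ± 0.501 to 10.5 ± 0.234 CPM (log2 fold change 1.07, FDR = 2e-06). Tulp3, which brings receptors into the primary cilium, went from 5.57 ± 0.958 to 12.0 ± 0.11 CPM (1.11, FDR = 7.7e-06). Arrb2, a beta-arrestin, went from 5.46 ± 0.836 to 11.8 ± 0.815 CPM (1.10, FDR = 7.8e-06). Both Tulp3 and Arrb2 were higher in every mutant. The largest fall was that of Stk36, a kinase also needed for motile cilia, from 261 ± 16.5 to 221 ± 6.63 CPM (log2 fold change -0.24, FDR = 0.0011). Sufu, which holds GLI proteins back, fell with a log2 fold change of -0.23, and Iqce of the ciliary complex around SMO with -0.16. Both calls were lost in most fits with a library left out. Sufu was not called without wild-type mouse 1 (-0.25, FDR = 0.012) or 2 (-0.24, FDR = 0.016), or without mutant 2 (-0.21, FDR = 0.035) or 4 (-0.22, FDR = 0.027). Among the fits with a library left out, Iqce was called only without wild-type mouse 1, and its FDR ran from 0.012 to 0.027 without any other library. After scaling by size factors the falls were larger, at -0.38 (FDR = 5.6e-05) for Stk36, -0.37 (FDR = 0.00047) for Sufu and -0.30 (FDR = 0.00011) for Iqce. In wild type these 3 genes were at 261, 215 and 214 CPM, above all other hedgehog genes listed. The transcription factors Gli2 and Gli3, which carry the signal to the target genes, were at 2.17 ± 0.291 and 2.86 ± 0.381 CPM in wild type and at 2.51 ± 0.53 and 2.85 ± 0.329 CPM in mutants. Neither was called, with log2 differences of 0.19 (95% interval -0.21 to 0.58) and -0.01 (-0.34 to 0.33). Of the 3 listed target genes of these factors, Ptch1 alone has a value here.

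Of the other PDGF ligands and the proteins that process or bind them, 6 of the 6 that reached the minimum in both groups rose. The share of all tested genes was 36.3%. Nrp1, a co-receptor that also binds other growth factors, went from 2.87 ± 0.359 to 8.01 ± 1.79 CPM (log2 fold change 1.43, FDR = 8.3e-06). Lrp1, an endocytic receptor that associates with PDGFRB, went from 76.2 ± 8.12 to 170 ± 6.46 CPM (1.16, FDR = 3.8e-08). The proteases Furin and Plat were among them. Furin, which cleaves the precursors of the PDGF chains, went from 18.4 ± 1.29 to 40.6 ± 1.87 CPM (1.14, FDR = 3.5e-08). Plat, an activator of PDGF-C, had a log2 fold change of 0.73. The ligand genes Pdgfd and Pdgfc changed less, with 0.50 and 0.32, and Pdgfc was not called after scaling by size factors (0.19, FDR = 0.046), nor without mutant 2 (0.30, FDR = 0.015) or mutant 4 (0.31, FDR = 0.015). The other 2 genes entered the test through the mutants only, and their values are given as a description. Pdgfrl, a receptor-like protein, was at 1.03 ± 0.221 CPM in wild type and 3.17 ± 0.21 in mutants, and Plau, an activator of PDGF-D, at 1.26 ± 0.388 and 2.65 ± 0.117 CPM.

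Of the signalling proteins that work behind PDGF receptors and behind many other receptors, 13 of 18 rose and 0 fell. The shares of all tested genes were 36.3% and 14.2%. The largest change was in Stat5b, from 4.51 ± 0.758 to 12.4 ± 1.1 CPM (log2 fold change 1.45, FDR = 1e-06), followed by Stat3, from 35.8 ± 2.5 to 79.8 ± 2.84 CPM (1.16, FDR = 1.2e-08). Both are transcription factors that tyrosine kinases activate. The genes not called were Sos1, Stat5a, Rasa1, Nck1 and Cbl, with log2 differences from 0.03 to 0.32. After scaling by size factors, 11 of the 18 were called higher, beside 27.0% of all tested genes.

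**Figure D4:**
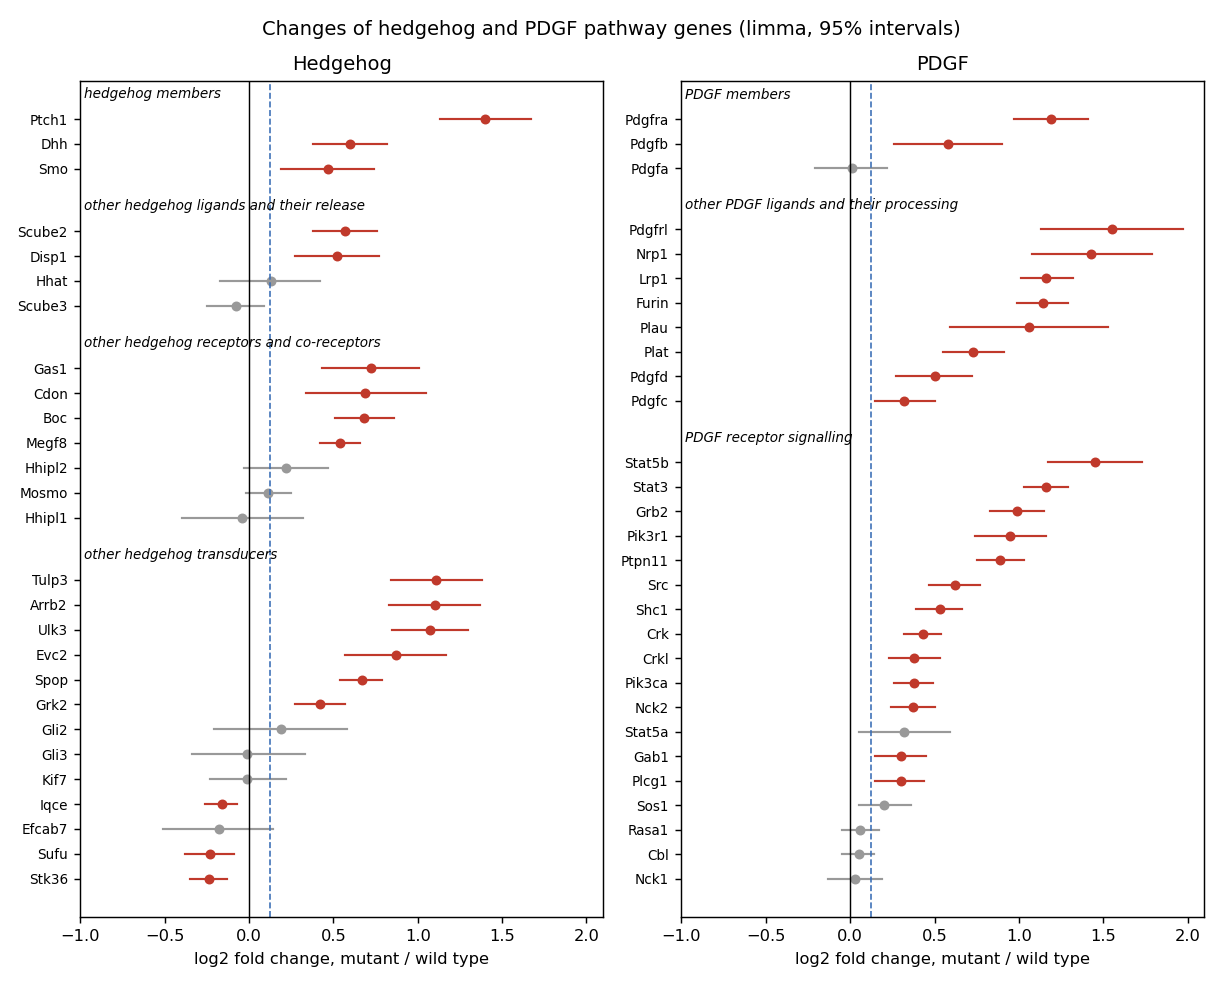
Log2 fold change between Iqch mutant and wild type (x axis) with its 95% interval, for hedgehog genes (left) and PDGF genes (right) grouped by role (y axis); red genes were called at an FDR under 0.01, grey ones were not, and the dashed blue line is the median of all tested genes (0.121). Ptch1 (1.40) lies to the right of every other hedgehog gene, Pdgfra (1.19) exceeds the ligands, and Stk36 (-0.24), Sufu (-0.23) and Iqce (-0.16) lie on the lower side. Pdgfb, Plau and Pdgfrl passed the minimum for testing only through the mutants.

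The genes whose pattern was most like that of Dhh were sought among 13902 tested genes with a mean of at least 5 CPM. By Pearson's r of log2 values over the 7 libraries they were Pip4p1 (0.9957), Atp13a3 (0.995) and Polr3k (0.9947). Their means went from 21.4 to 30.2, from 31.3 to 41.5 and from 17.2 to 22.2 CPM. As many as 455 genes had an r over 0.95, and the 7 points of each correlation share the same libraries and the difference between the groups.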

How the data were processed

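Total RNA of whole testes was sequenced after TruSeq library preparation, 1 library per mouse. The authors used Trimmomatic for trimming, Subread for mapping to GRCm39 and featureCounts for counts per gene, dropped genes that did not reach 75 reads in at least 2 libraries of one group, and deposited CPM. The annotation release and strand setting are not given in the sources used here. The deposited CPM summed to 1000000 in each library, and all values were whole multiples of 1 step, taken as 1 read.

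Differences were fitted to log2(CPM + 0.1) by the functions lmFit and eBayes (with trend) of limma 3.58.1, run in R 4.3.3. Genes needed 2.2 CPM in at least 2 libraries of one group, no covariate was used, and adjustment followed Benjamini-Hochberg. Fold changes are on that scale and understate those of low genes. The fit was tested on simulated data in which few genes changed, equally many up and down. In these data many genes changed and higher calls outnumbered lower ones, so the simulation cannot show how the fit performs here. Ratios used exact permutation tests, with all groupings enumerated in Python 3.11.15. The p-values printed with each ratio come from that enumeration. SciPy 1.17.1 gave those with the smaller tail doubled. Genes were matched to GENCODE M39 (17045 found, 82 not), which gave coordinates and exon lengths. Alternatives were a pseudocount of 1 or 0.01, no minimum or 5 CPM, median-of-ratios or TMM factors, a replicate block and each library left out.

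The members and gene lists were chosen with earlier results of these data known, and 1 listed gene is not reported here and was left out of the counts. Genes named were all members, Iqch, listed pathway genes called with a fold change above 2 or with the largest change per list and direction, and the 3 genes most like Dhh. The labels give each library only a genotype and a number, and that the replicates are separate mice is taken from the paper. The p-values measure the spread between these libraries.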

Additional observations from a re-analysis of the deposited data

Results flagged for a closer look

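The wild-type values of Scube2 stood out for 1 library. Mouse 4 was at 30.8 CPM and the other wild-type mice were at 23.3 to 24.5 CPM, a gap of 0.849 of the group's range. The mutants were all higher, and the call of Scube2 held with each library left out in turn. Among the 26 groups examined this way, 1 stood out, and chance gives about 1 in 20.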

How the results depend on the processing

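The calls of Dhh, Ptch1, Pdgfra and Iqch held under every alternative run. Scaling changed the whole table, with 4294 genes called lower under size factors and 4105 under TMM factors against 2428. Of the listed genes, 3 were called under size factors, TMM factors or the replicate block, and 3 to 5 with a library left out. Smo had log2 fold changes of 0.33 (size factors), 0.35 (TMM factors), 0.44 (replicate block) and 0.40 to 0.59 with a library left out, and was called in 1 of 7 such fits. Pdgfb, which passed the minimum only through the mutants, had 0.45, 0.46, 0.51 and 0.51 to 0.63. It was called in 4 of 7, and was not tested at a minimum of 5 CPM. With a pseudocount of 1, Dhh relative to Sertoli markers differed by -0.45 and Ptch1 relative to Leydig markers by -0.65 (both exact permutation p = 0.029). Against the mean log2 level of the markers, added after seeing the data, Pdgfra differed by -0.43 (exact permutation p = 0.086), Dhh by -0.29 (0.14) and Ptch1 by -0.22 (0.31). The cause of these shifts was not tested. Of the 41 called members and pathway genes, 9 lost the call under some alternative, namely Smo, Pdgfb, Disp1, Cdon, Sufu, Iqce, Pdgfc, Plcg1 and Gab1, as did 7 of 43 called markers, Sox9 and Mcam among them. Uncalled Col3a1 was called under both scalings and without wild-type mouse 2, Efcab7 without mutant 4 and Sos1 without wild-type mouse 1. Col1a1 was called lower under the replicate block (-0.43, FDR = 0.004). Vwf and Spaca1 were called lower under both scalings, and Spaca1 also without wild-type mouse 4. Acta2 was called higher without mutant 4 and Stra8 higher without wild-type mouse 4.

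The replicate block used the number in the labels. Same-numbered deviations correlated at 0.026, 0.009 and -0.098, and differently numbered ones at -0.061 to 0.073. So few libraries cannot settle whether the numbers pair the mice, and the labels do not say. Wild-type mouse 3, with no partner, adds nothing to the blocked fit. It called 7722 genes against 8640, and it changed no call of Dhh, Ptch1, Pdgfa, Pdgfra or the other pathway genes named by rule.

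Tests on recovered counts with edgeR and DESeq2 were not run. At 60 to 116 reads per library, Pdgfb was the lowest of the 6 members. With a library left out, the ratios were values with no test.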
